A study of Mus musculus with 14 samples.

Results

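Chromatin accessibility was described at 10 genes of transforming growth factor-β (TGF-β) activation and SMAD signalling in regulatory T (Treg) cells: Itgb8, Tgfb1, Tgfbr1, Tgfbr2, Smad2, Smad3, Smad4, Smad7, Ski and Skil. The members were the windows of a bulk ATAC-seq count table whose centre lay nearest to the start site of 1 of these genes among all protein-coding genes and within 100 kb of it. There were 530 such windows among 240778, in 354 separate regions, since 292 of the 530 overlapped another member window. ATAC-seq uses a transposase to insert sequencing adapters into open chromatin, and each window spans 201 bp at a peak summit. All levels are given as CPM, the count of a window relative to the TMM-normalized total of its library, and log2 fold changes are R26TIR1(F74G) against R26WT mice, with ± their standard error. Because all windows have the same length, levels of different genes could be compared per window.

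The cells were Treg cells of the spleen and lymph nodes, taken from mice in which Foxp3, the lineage-defining transcription factor of Treg cells, is fused to an auxin-inducible degron (Foxp3-AID). The first group, with 4 mice on day 3 and 3 mice on day 7, also carried TIR1(F74G) at ROSA26 and is called R26TIR1(F74G) here. TIR1(F74G) is the plant receptor through which the ligand 5-ph-IAA directs the fusion protein to degradation. The control group, also 4 mice on day 3 and 3 on day 7, carried a wild-type ROSA26 locus (R26WT). Mice of both genotypes carried the degron allele and received 5-ph-IAA for 3 or 7 days. The fusion allele also encodes a ZsGreen reporter and Cre recombinase, and TIR1 is expressed only after Cre has removed a STOP cassette, so the receptor is restricted to cells that have expressed the Foxp3 allele. The study describes cells sorted as resting and activated for day 7, and heterozygous females, which carry the degron allele beside a wild-type allele of the X-linked Foxp3 gene. The labels name neither an activation state nor zygosity, age or sex, so values could not be separated by activation state. Where libraries hold a mixture of cell states, fewer cells with an open site and a less open site in each cell cannot be told apart.

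TGF-β is secreted in a latent complex that holds the cytokine inactive until it is released, and the integrin αvβ8, whose β chain is encoded by Itgb8, is 1 of the surface proteins that release it. Active TGF-β binds the type II receptor Tgfbr2, which recruits and phosphorylates the type I receptor Tgfbr1. The type I receptor in turn phosphorylates Smad2 and Smad3, which enter the nucleus with the common partner Smad4 and regulate genes. Smad7 inhibits the receptor complex, while Ski and Skil (SnoN) are co-repressors that bind SMAD proteins. In T cells this pathway is known for inducing Foxp3 in peripheral precursors through a SMAD-binding enhancer of the Foxp3 gene, and Treg cells are a source of active TGF-β.

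The start sites of the genes are shown by the 250 bases upstream of them for 5 genes: Itgb8 and Tgfb1 as the activator and the ligand, the receptor genes Tgfbr1 and Tgfbr2, and Smad3, whose windows were most often lower in R26TIR1(F74G) mice. The sequences are from RefSeq (GRCm38.p6), read 5′ to 3′ in the direction of transcription, and end at the base before the start site. Capitals mark GC boxes (GGGCGG or, on the other strand, CCGCCC) and the SMAD-binding letters CAGAC or GTCTG.
Itgb8 (chr12:119238277-119238526, minus strand): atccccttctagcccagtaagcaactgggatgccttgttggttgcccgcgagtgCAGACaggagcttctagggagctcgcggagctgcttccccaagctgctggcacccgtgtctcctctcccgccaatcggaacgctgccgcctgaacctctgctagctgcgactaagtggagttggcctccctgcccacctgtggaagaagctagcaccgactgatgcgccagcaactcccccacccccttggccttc
Tgfb1 (chr7:25686752-25687001, plus strand): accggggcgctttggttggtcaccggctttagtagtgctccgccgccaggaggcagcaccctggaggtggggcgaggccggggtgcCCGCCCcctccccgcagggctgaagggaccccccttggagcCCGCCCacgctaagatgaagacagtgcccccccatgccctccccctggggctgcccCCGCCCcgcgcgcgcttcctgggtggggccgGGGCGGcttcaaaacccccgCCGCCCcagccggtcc
Tgfbr1 (chr4:47352972-47353221, plus strand): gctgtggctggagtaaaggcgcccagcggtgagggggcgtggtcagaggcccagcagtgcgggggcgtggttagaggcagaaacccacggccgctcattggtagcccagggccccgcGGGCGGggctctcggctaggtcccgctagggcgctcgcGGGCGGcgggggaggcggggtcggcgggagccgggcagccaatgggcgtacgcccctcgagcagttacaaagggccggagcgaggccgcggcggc
Tgfbr2 (chr9:116175364-116175613, minus strand): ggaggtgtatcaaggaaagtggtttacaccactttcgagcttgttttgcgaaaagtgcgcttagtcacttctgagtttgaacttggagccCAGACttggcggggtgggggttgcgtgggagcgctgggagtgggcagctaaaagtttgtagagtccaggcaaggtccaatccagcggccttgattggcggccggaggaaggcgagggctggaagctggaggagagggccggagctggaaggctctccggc
Smad3 (chr9:63757995-63758244, minus strand): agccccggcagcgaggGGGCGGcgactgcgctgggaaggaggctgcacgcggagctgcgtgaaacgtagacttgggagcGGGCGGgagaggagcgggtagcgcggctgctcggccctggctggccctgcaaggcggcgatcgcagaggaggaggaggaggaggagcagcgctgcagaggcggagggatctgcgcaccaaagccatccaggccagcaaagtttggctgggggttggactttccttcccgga

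Sequences were found for 6 of the 10 genes, the 5 shown and Ski. GC boxes were counted 5 times upstream of Tgfb1 and of Ski, 2 times upstream of Tgfbr1 and of Smad3, and were absent from these letters in Itgb8 and Tgfbr2. Of 21238 promoters of the same length, 42.6% held at least 1 GC box. CAGAC or GTCTG occurred once upstream of Itgb8, at -196, and once upstream of Tgfbr2, at -160, and in 40.8% of all promoters. The paired SMAD element GTCTAGAC (0.184% of promoters), the ETS letters CCGGAAG (8.99%), the forkhead letters GTAAACA (2.61%), the AP-1 letters TGANTCA (6.14%) and the RUNX letters TGTGGTT (3.82%), each searched on both strands, did not occur in the 6 sequences. The GC content of the 6 sequences ran from 58.4% for Tgfbr2 to 87.6% for Ski, against a median of 55.6% over all promoters. The most accessible window near the start site shared 179 bases with the sequence shown for Tgfb1, 202 for Tgfbr1 and 116 for Smad3, and lay outside it for Itgb8 and Tgfbr2.

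The libraries held between 5653289 and 20184487 counts in windows, with R26TIR1(F74G) replicate 1 on day 3 and R26WT replicate 3 on day 7 (6348754) the shallowest. Of markers set for Treg and T cells, 5 of 6 genes had a window at the start site. Their levels ran from 4.55 CPM at Cd4 to 20.9 CPM at Ikzf2, whereas Foxp3 itself had none there. Only the upstream end of each annotated gene was taken as its start site, and windows at other promoters of a gene were not looked for. Of 6 B cell markers, 2 had a start-site window (Cd79b and Ebf1, no higher than 3.50 CPM), with a summed level between 12.8 and 21.0 CPM in the 14 libraries. Of 6 myeloid markers, 4 had 1, at 1.12 to 4.48 CPM, with sums between 26.1 and 33.5 CPM. Of 5 CD8 T and NK cell markers, 3 had 1, namely Cd8a (1.33 CPM), Eomes (5.33 CPM) and Cd8b1 (12.5 CPM), while Klrd1 and Ncr1 had none. The sums of this list lay between 41.4 and 54.0 CPM. Its Eomes and Cd8b1 windows stood above that of Cd4, and Cd8b1 also above Cd3e (11.2 CPM). Summed levels of the 4 markers of activated Treg cells with a window were 81.1 to 106 CPM in R26WT and 82.3 to 98.0 CPM in R26TIR1(F74G) mice on day 3, and 97.3 to 99.3 and 97.9 to 101 CPM on day 7. All 6 markers of resting Treg cells had a window. Their sums were 254 to 272 CPM in R26WT and 217 to 294 CPM in R26TIR1(F74G) mice on day 3, and 261 to 278 and 257 to 277 CPM on day 7. The ranges of the activated and of the resting markers overlapped between genotypes on both days. For the Treg and T cell markers, 17 of 20 start-site windows had a negative fold change on day 3 (median -0.18, 5 at an unadjusted p under 0.05, 0 called), with sums of 178 to 192 CPM in R26WT and 146 to 186 CPM in R26TIR1(F74G) mice. On day 7, 8 of the 20 were lower (median 0.07), with sums of 168 to 196 and 175 to 181 CPM, and over both days 15 were lower (median -0.09).

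All 10 genes had accessible chromatin at their start sites. The median level of the 49 member windows within 1 kb of a start site was 11.4 CPM, against 4.48 CPM for the 47011 windows equally near to any start site. For the other member windows it was 2.03 CPM, against 1.66 CPM for the other windows within 100 kb of any start site. Of the 530 windows, 67 (12.6%) were among the most accessible 10% of the table. Tgfbr2 had the most windows, 110 in 74 regions, and Smad7 was next with 98 in 65 regions. Smad3 had 56, Ski 52, Itgb8 47, Tgfbr1 41, Skil 40, Smad2 39, Smad4 34 and Tgfb1 13, where the median gene with any window had 8.

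**Figure D1:**
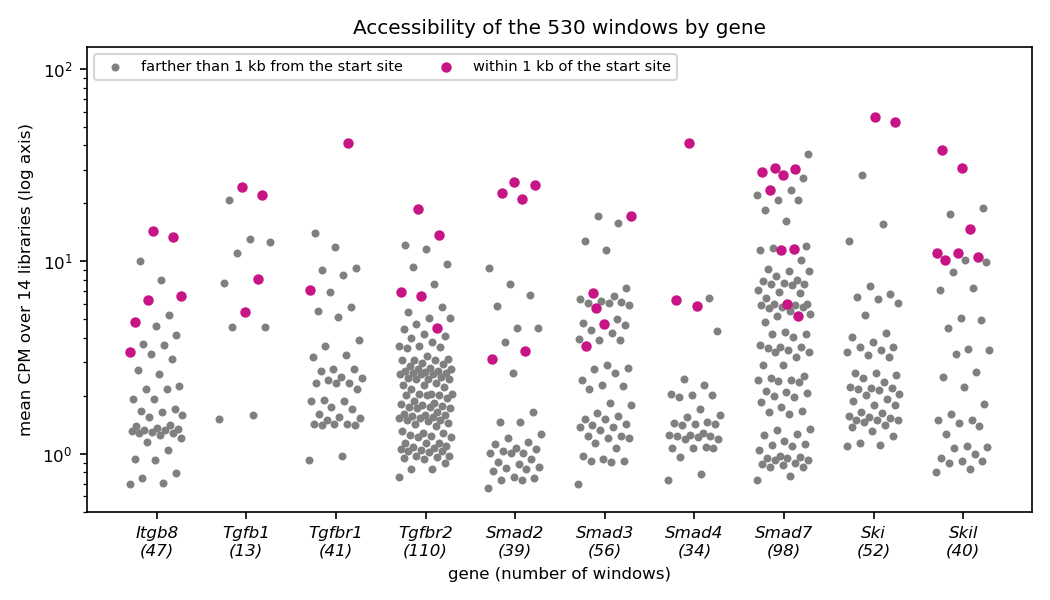
Each point is 1 of the 530 windows, placed at its gene on the x axis and at its mean CPM over 14 libraries on the y axis (log axis). Windows within 1 kb of the start site (magenta) hold the highest level at 9 genes, with a maximum of 56.3 CPM at Ski, and at Smad7 a window farther away reached 36.0 CPM.

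The order of the most accessible start-site windows was Ski (56.3 CPM), Tgfbr1 (41.4), Smad4 (41.4), Skil (38.0), Smad7 (30.4), Smad2 (25.8), Tgfb1 (24.2), Tgfbr2 (18.8), Smad3 (17.3) and Itgb8 (14.4). Even that of Itgb8 was higher than 94.2% of all windows. The ranges of single mice overlapped between all neighbours in this order. Beyond 1 kb from the start, the highest levels were 36.0 CPM inside Smad7 and 28.0 CPM inside Ski.

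The question for each window was whether accessibility differed after Foxp3 degradation. None of the 530 windows did so at an adjusted p under 0.05 (edgeR, Benjamini-Hochberg adjustment over the whole table) in any of 6 comparisons. Between genotypes on day 7, 0 of 530 passed, where 0.00463% of all windows did (11 of 237811). On day 3, 0 of 524 passed, and 0% of all windows (0 of 235515). With both days in 1 fit and day as a term, 0 of 530 passed, where 0.0112% of all windows did (27 of 240778). An unadjusted p under 0.05 was reached by 31 member windows on day 7 (5.85%, against 5.95% of all windows), by 33 on day 3 (6.30%, against 7.55%) and by 44 over both days (8.30%, against 6.73%). These shares lay near those of the whole table. DESeq2, the tool of the study, called 0 member windows on day 7 and on day 3, and 0% of all windows. Over both days it called 2 (in Smad3 and Ski), where it called 155 of 240778 windows (0.0644%). Its own filtering gave an adjusted p to 30712 windows only, and the share among those is larger. Of the 155 windows called, 25 were higher in R26TIR1(F74G) mice and the others lower, as were the 2 members. With this tool 14 member windows had an unadjusted p under 0.05 on day 7 (2.64%, against 2.68% of all windows), 21 on day 3 (4.01%, against 4.99%) and 38 over both days (7.17%, against 5.88%). These shares too lay near those of the table.

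Most of the 44 windows were less accessible in R26TIR1(F74G) mice, 38 against 6. Of the 31 on day 7, 19 were lower, and of the 33 on day 3, 26 were lower. How the windows of the whole table at that p divided by direction was not counted. Over all member windows 62.6% had a negative log2 fold change over both days, against 49.3% of all windows, with a median of -0.05 against 0.003. On day 7 these were 54.9% against 51.0%, and on day 3 they were 61.6% against 48.8%. The shares were counted with TMM normalization only. The groups did not overlap in 53 member windows on day 7 (10.0%, against 11.8% of all windows), 34 of them lower in R26TIR1(F74G) mice. On day 3 they did not overlap in 20 (3.82%, against 4.1%), 16 of them lower. The direction of all windows without overlap was not counted either. Across the 7 mice of each genotype, both days together, the groups did not overlap in 1 member window (0.189%, against 0.116% of all windows), which lies in Smad3. The day 3 and day 7 fold changes, which come from separate mice, had the same sign in 290 of 524 member windows (55.3%), against 50.0% of 232548 windows, and their Pearson correlation across member windows was 0.07. Windows are not independent replicates, since neighbours share reads and all share the libraries.

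**Figure D2:**
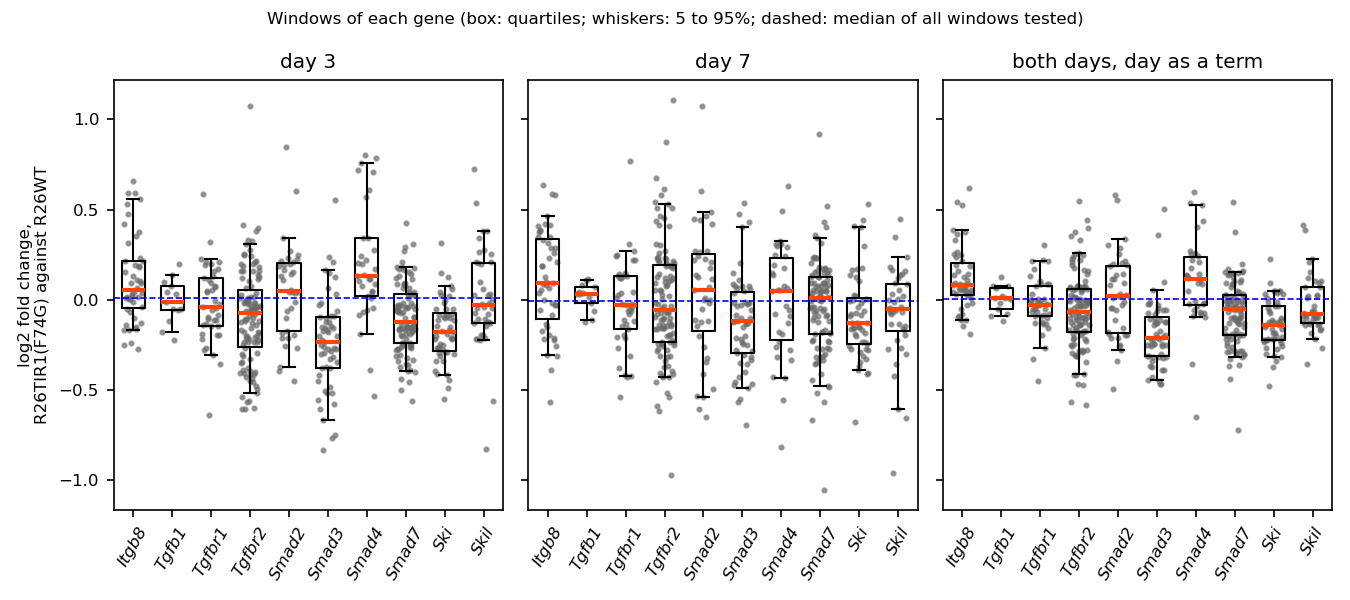
Log2 fold changes between R26TIR1(F74G) and R26WT mice (y axis) for the windows of each gene (x axis), for day 3, day 7 and both days. Boxes give quartiles, whiskers the 5 to 95% range and the dashed line the median of all windows tested, and the median of Smad3 lies lowest on day 3 (-0.24) and over both days (-0.21).

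Smad3, the receptor-regulated SMAD gene on the minus strand at chr9:63646766-63757994 (GRCm38, gene ID 17127), had the lowest median among the 10 genes on day 3 and over both days, and the next to lowest after Ski on day 7. Of its 56 windows, 52 had a lower level in R26TIR1(F74G) mice over both days, in 36 of 40 separate regions. On day 7 this was 41 of 56 and on day 3 47 of 55, and 35 of 55 were lower on both days while 3 were higher on both. On day 7 the unadjusted p was under 0.05 in 9 windows, on day 3 in 10 and over both days in 15. All of these were lower. That p was reached by 5.95%, 7.55% and 6.73% of all windows, whose direction was not counted. Median log2 fold changes were -0.12 (day 7), -0.24 (day 3) and -0.21 (both days). Of the 3004 genes with at least 20 windows, 34 (1.13%) had a lower median over both days, as had 62 of 2926 (2.12%) on day 3 and 392 of 2980 (13.2%) on day 7. Smad3 was singled out among the 10 genes after these values were seen, and its rank is a description without a test.

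The mean of log2(CPM + 0.5) over these same Smad3 windows was also taken for each mouse. On day 3 it was 1.98, 1.94, 1.79 and 1.88 for R26WT and 1.67, 1.62, 1.79 and 1.73 for R26TIR1(F74G) mice. On day 7 it was 1.82, 1.80 and 1.80 for R26WT and 1.66, 1.74 and 1.71 for R26TIR1(F74G) mice. The groups did not overlap on either day, although on day 3 the nearest mice of the 2 genotypes both stood at 1.79. These means restate the windows by which Smad3 was singled out and are not separate evidence. Among the other members, the mean of Smad7 was also lower without overlap on day 3, where the nearest mice of the 2 genotypes both stood at 2.24. That of Itgb8 was higher without overlap on day 7. The share of all genes with means that do not overlap was not counted. Divided by position, all 5 Smad3 windows within 1 kb of the start site, all 8 upstream of that and 39 of the 43 within the gene were lower over both days. These are the same windows counted above. When single mice were left out, the median over both days lay between -0.23 and -0.17, and with the prefix of the mouse names (AC or E) as a term it was -0.20. The day 7 median was -0.07 without R26WT replicate 1 and -0.31 under a mean count minimum of 50, and the day 3 median was -0.13 under that filter. The Treg and T cell marker windows moved the same way on day 3 and over both days (medians -0.18 and -0.09), and their part in the Smad3 values was not tested.

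**Figure D3:**
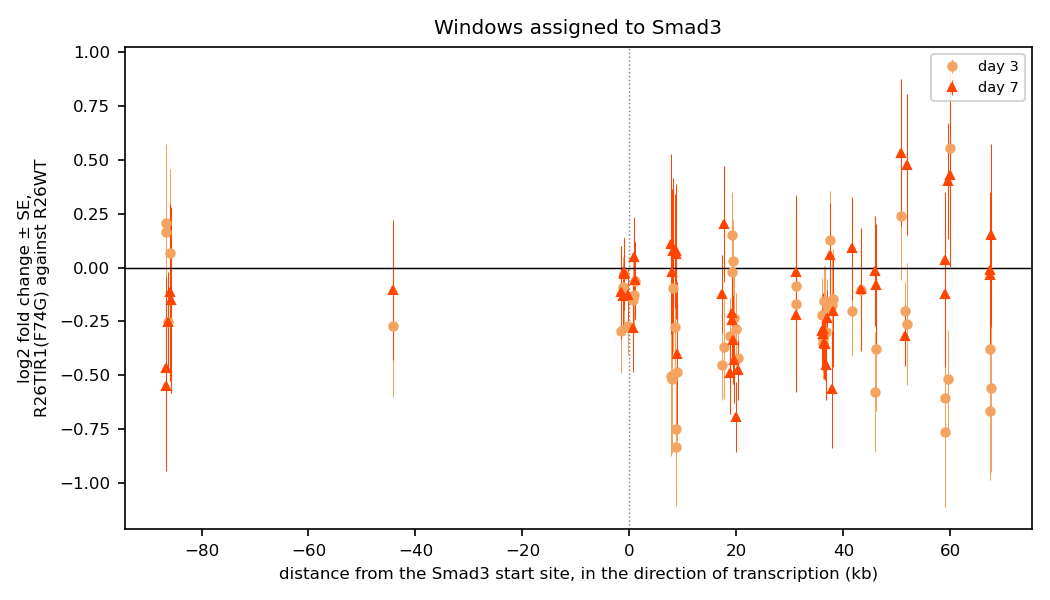
Log2 fold change with its standard error (y axis) of each Smad3 window against its distance from the start site in kb (x axis, positive within the gene), for day 3 (circles) and day 7 (triangles). Most points lie under 0 on both days, and they scatter more widely beyond 50 kb, where day 7 includes values up to 0.53.

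The Smad3 window with the smallest p over both days lies within the gene, 20284 bp from the start site (chr9:63737610-63737811). On day 3 it had CPM levels of 14.3, 14.8, 14.3 and 14.3 for R26WT and 10.8, 8.75, 12.6 and 11.2 CPM for R26TIR1(F74G) mice. On day 7 the levels were 17.2, 14.5 and 13.0 for R26WT and 9.63, 11.0 and 11.9 CPM for R26TIR1(F74G) mice. All 7 R26TIR1(F74G) mice, at 12.6 CPM or less, lay below all 7 R26WT mice, at 13.0 CPM or more. The log2 fold change was -0.44 ± 0.10 (adjusted p = 0.140) over both days, -0.48 ± 0.14 (adjusted p = 0.609) on day 7 and -0.42 ± 0.14 (adjusted p = 0.500) on day 3. Over both days it was 1 of the 2 windows called by DESeq2 (adjusted p = 0.00480, adjusted over 30712 windows after that tool's own filtering, of which it called 155). With edgeR the adjusted p lay between 0.0569 and 0.448 in the alternatives, and no fold change was nearer to 0 than -0.39. Within the mice of name prefix AC, of which the R26TIR1(F74G) group has 2 on day 3, the levels of day 3 were 14.3, 14.8 and 14.3 against 10.8 and 8.75 CPM. Any such subset is apart here, since all 7 mice of each genotype are, so this does not test the prefix.

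A window 19864 bp from the start site (chr9:63738030-63738231), which does not overlap the first, had the smallest p of all member windows on day 7. Its day 7 levels were 8.27, 7.62 and 8.40 for R26WT and 5.24, 4.95 and 4.70 CPM for R26TIR1(F74G) mice. The groups did not overlap on that day, with a log2 fold change of -0.70 ± 0.16 (adjusted p = 0.263). On day 3 the levels were 7.53, 7.08, 7.03 and 7.91 for R26WT and 5.04, 4.56, 7.68 and 6.84 CPM for R26TIR1(F74G) mice, and these groups overlapped, with a log2 fold change of -0.28 ± 0.17 (adjusted p = 0.723). Another window, 8742 bp from the start (chr9:63749152-63749353), was a low window with day 3 levels of 2.34, 2.32, 1.91 and 2.07 for R26WT and 1.44, 1.23, 1.19 and 1.05 CPM for R26TIR1(F74G) mice. Its groups did not overlap on day 3, with a log2 fold change of -0.83 ± 0.28 (adjusted p = 0.504), while the day 7 levels were 1.29, 1.74 and 1.50 for R26WT and 1.50, 1.49 and 1.77 CPM for R26TIR1(F74G) mice and the log2 fold change 0.07 ± 0.30 (adjusted p = 0.990). For the difference of the genotype effect between the days, the value at this window was 0.90 ± 0.40 (adjusted p = 0.767).

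At the Smad3 start site the most accessible window (chr9:63758129-63758330, 235 bp upstream) overlapped the GC-rich sequence printed for this gene. On day 3 its levels were 16.0, 17.3, 19.8 and 20.6 for R26WT and 19.2, 14.5, 13.7 and 15.0 CPM for R26TIR1(F74G) mice. The day 7 levels were 19.6, 19.4 and 16.0 for R26WT and 17.2, 15.7 and 18.0 CPM for R26TIR1(F74G) mice. The groups overlapped on both days, with log2 fold changes of -0.27 ± 0.13 (adjusted p = 0.651) on day 3 and -0.13 ± 0.13 (adjusted p = 0.934) on day 7. The most accessible window farther away, 37028 bp into the gene (chr9:63720866-63721067), had -0.18 ± 0.13 (adjusted p = 0.786) on day 3 and -0.24 ± 0.13 (adjusted p = 0.869) on day 7. Neither of these windows differed between genotypes by the test.

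Smad2, the other receptor-regulated SMAD gene (chr18:76241090-76311748, plus strand), had no such shift. Of its 39 windows, 18 were lower over both days, with a median log2 fold change of 0.02 (-0.005 without R26TIR1(F74G) replicate 4 of day 3), and 0 reached an unadjusted p under 0.05. Its lowest p was on day 7 at a window 697 bp into the gene (chr18:76241687-76241888). There the levels were 23.9, 25.5 and 24.6 for R26WT and 15.8, 17.3 and 19.3 CPM for R26TIR1(F74G) mice, and the groups did not overlap, with a log2 fold change of -0.50 ± 0.12 (adjusted p = 0.394). On day 3, in contrast, the levels were 20.0, 15.5, 21.9 and 25.6 for R26WT and 26.6, 16.8, 20.6 and 23.0 CPM for R26TIR1(F74G) mice, with a log2 fold change of 0.04 ± 0.14 (adjusted p = 0.972). The difference between the days had a value of -0.54 ± 0.20 (adjusted p = 0.716) and did not pass the test. When the day 7 test was limited to a mean count of at least 50, this was the 1 member window that passed (log2 fold change -0.53, adjusted p = 0.0363), among 34 of 72691 windows (0.0468%). Leaving out single mice, the day 7 fold change lay between -0.57 and -0.43.

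The start-site window of Smad2 (chr18:76241202-76241403)  had day 7 levels of 24.0, 23.5 and 27.1 for R26WT and 28.4, 24.2 and 28.7 CPM for R26TIR1(F74G) mice, with a log2 fold change of 0.14 ± 0.12 (adjusted p = 0.923). On day 3 it had 25.0, 25.1, 29.0 and 30.0 for R26WT and 25.0, 25.6, 21.8 and 23.7 CPM for R26TIR1(F74G) mice, with a log2 fold change of -0.19 ± 0.12 (adjusted p = 0.750). A window at 1212 bp (chr18:76242202-76242403), the most accessible one beyond 1 kb, had 0.18 ± 0.17 (adjusted p = 0.929) on day 7 and 0.03 ± 0.16 (adjusted p = 0.981) on day 3. On day 7 these windows had positive fold changes on either side of the negative one at 697 bp.

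Smad4, the common SMAD gene (chr18:73634790-73703791, minus strand), had 34 windows, of which 13 were lower over both days, with a median of 0.11 (0.13 on day 3 and 0.05 on day 7). These medians depended on single mice, the day 7 one being -0.10 without R26WT replicate 1, as high as 0.17 without R26TIR1(F74G) replicate 1, and of the other sign in 3 of 6 cases. The day 3 median was 0.26 without R26TIR1(F74G) replicate 2 and 0.08 without replicate 1, and the median over both days was 0.05 without R26TIR1(F74G) replicate 3 of day 3 and 0.002 under the count minimum of 50. With a median coefficient of variation of 30.7% among R26WT mice, its windows were the most variable of the 10 genes, and 5 had a mean count of at least 50. The start-site window (chr18:73703763-73703964) had day 3 levels of 34.7, 42.3, 44.4 and 43.8 for R26WT and 43.7, 42.7, 42.8 and 41.5 CPM for R26TIR1(F74G) mice. On day 7 it had 42.8, 41.1 and 45.7 for R26WT and 34.7, 40.0 and 39.3 CPM for R26TIR1(F74G) mice. The day 7 groups did not overlap, and the log2 fold change was -0.18 ± 0.12 (adjusted p = 0.886), against 0.04 ± 0.11 (adjusted p = 0.962) on day 3. At 1022 bp, in the most accessible window beyond 1 kb (chr18:73702669-73702870), the values were -0.19 ± 0.17 (adjusted p = 0.921) on day 7 and 0.09 ± 0.17 (adjusted p = 0.944) on day 3.

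Among the genes of activation, Itgb8 (chr12:119162803-119238276, minus strand, gene ID 320910) had more windows with a higher than with a lower level in R26TIR1(F74G) mice, 37 of 47 over both days, 29 of 47 on day 7 and 32 of 46 on day 3. The median log2 fold change was 0.08 over both days, 0.09 on day 7 and 0.05 on day 3. An unadjusted p under 0.05 was reached by 1, 0 and 2 windows, and by 6.73%, 5.95% and 7.55% of all windows. The day 3 median was -0.04 without R26TIR1(F74G) replicate 3 and 0.12 without R26WT replicate 2, and its sign changed in 1 of 8 such cases. All 6 windows within 1 kb of the start site were higher over both days. The mean of log2(CPM + 0.5) over the gene on day 7 was 1.39, 1.42 and 1.39 for R26WT and 1.49, 1.53 and 1.47 for R26TIR1(F74G) mice, without overlap. On day 3 it was 1.38, 1.48, 1.38 and 1.37 against 1.20, 1.59, 1.53 and 1.46, where the lowest value belonged to the shallowest library and the groups overlapped. The share of all genes with means that do not overlap on day 7 was not counted.

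The start-site window of Itgb8 (chr12:119238678-119238879, 502 bp upstream) had day 7 levels of 13.2, 15.4 and 10.0 for R26WT and 15.2, 17.3 and 14.9 CPM for R26TIR1(F74G) mice, with a log2 fold change of 0.26 ± 0.14 (adjusted p = 0.862). Day 3 levels were 11.2, 15.3, 16.5 and 15.8 for R26WT and 13.7, 15.1, 14.5 and 13.5 CPM for R26TIR1(F74G) mice, with a log2 fold change of -0.05 ± 0.13 (adjusted p = 0.965). The groups overlapped on both days. The distal window, 81054 bp from the start and past the end of the gene (chr12:119157122-119157323), had -0.19 ± 0.15 (adjusted p = 0.909) on day 7 and -0.10 ± 0.14 (adjusted p = 0.915) on day 3. It is the most accessible Itgb8 window beyond 1 kb, at 10.1 CPM.

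Tgfb1, which encodes the main TGF-β ligand of T cells (chr7:25687002-25705077, plus strand, gene ID 21803), had the fewest windows and the most even ones. Its 13 windows had a median level of 8.11 CPM and a median coefficient of variation among R26WT mice of 10.0%, against 24.3% over all windows. Of the 13, 11 had a mean count of at least 50, and windows of matched level were not compared. No fold change of a Tgfb1 window was outside -0.12 to 0.12 on day 7 or -0.22 to 0.20 on day 3, and 0 windows reached an unadjusted p under 0.05 in any genotype comparison. The start-site window (chr7:25686823-25687024) had day 3 levels of 23.2, 23.9, 26.8 and 26.8 for R26WT and 24.1, 24.3, 18.2 and 22.7 CPM for R26TIR1(F74G) mice. On day 7 they were 22.2, 27.7 and 24.0 for R26WT and 26.8, 23.7 and 25.1 CPM for R26TIR1(F74G) mice. The groups overlapped, and the log2 fold changes were -0.18 ± 0.12 (adjusted p = 0.771) and 0.03 ± 0.12 (adjusted p = 0.990). A window 2439 bp into the gene (chr7:25689341-25689542) had -0.05 ± 0.12 (adjusted p = 0.959) on day 3 and 0.07 ± 0.13 (adjusted p = 0.972) on day 7.

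For the type I receptor gene Tgfbr1 (chr4:47353222-47414926, plus strand), 38 of 41 windows lay more than 1 kb upstream of the gene and 1 inside it beyond 1 kb. The median log2 fold change was -0.03 on day 7 and -0.04 on day 3, with 0 and 1 windows at an unadjusted p under 0.05. That p was reached by 5.95% and 7.55% of all windows. Both medians were 0.02 in the highest case with a mouse left out, when the mouse was R26WT replicate 1 (day 7) or R26TIR1(F74G) replicate 4 (day 3). The start-site window (chr4:47353000-47353201), which lies on the sequence with 2 GC boxes, had day 3 levels of 41.6, 37.4, 41.5 and 50.8 for R26WT and 42.8, 42.7, 32.6 and 37.9 CPM for R26TIR1(F74G) mice. The day 7 levels were 41.9, 42.7 and 40.5 for R26WT and 40.9, 42.3 and 44.5 CPM for R26TIR1(F74G) mice. The groups overlapped, with log2 fold changes of -0.14 ± 0.12 (adjusted p = 0.827) and 0.03 ± 0.11 (adjusted p = 0.990). The window 1627 bp upstream (chr4:47351495-47351696) had -0.11 ± 0.14 (adjusted p = 0.902) and -0.16 ± 0.13 (adjusted p = 0.912).

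The type II receptor gene Tgfbr2 (chr9:116087695-116175363, minus strand) had 110 windows, 61 of them inside the gene. On day 7 the groups did not overlap in 18 of the 110, 9 lower and 9 higher in R26TIR1(F74G) mice. Of all windows, 11.8% had groups without overlap on that day. An unadjusted p under 0.05 was reached by 7 of the 110 on day 7, 6 of these higher, where 5.95% of all windows reached it. On day 3, 5 did so, 4 of these lower, where 7.55% of all windows did. The median was -0.06 on day 7 and -0.08 on day 3. It was 0.01 on day 7 without R26WT replicate 1 and -0.14 on day 3 without R26TIR1(F74G) replicate 1, and under a count minimum of 50 it was positive on both days (0.03 and 0.07). The start-site window (chr9:116175136-116175337) had day 3 levels of 19.0, 20.6, 17.3 and 19.3 for R26WT and 20.3, 18.5, 16.2 and 18.4 CPM for R26TIR1(F74G) mice. Day 7 levels were 21.1, 19.9 and 18.3 for R26WT and 16.4, 16.7 and 20.8 CPM for R26TIR1(F74G) mice. The groups overlapped on both days, with log2 fold changes of -0.06 ± 0.12 (adjusted p = 0.946) and -0.15 ± 0.13 (adjusted p = 0.921). The most accessible window within the gene beyond 1 kb, at 60931 bp (chr9:116114332-116114533), had -0.09 ± 0.14 (adjusted p = 0.923) and -0.03 ± 0.14 (adjusted p = 0.990).

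**Figure D4:**
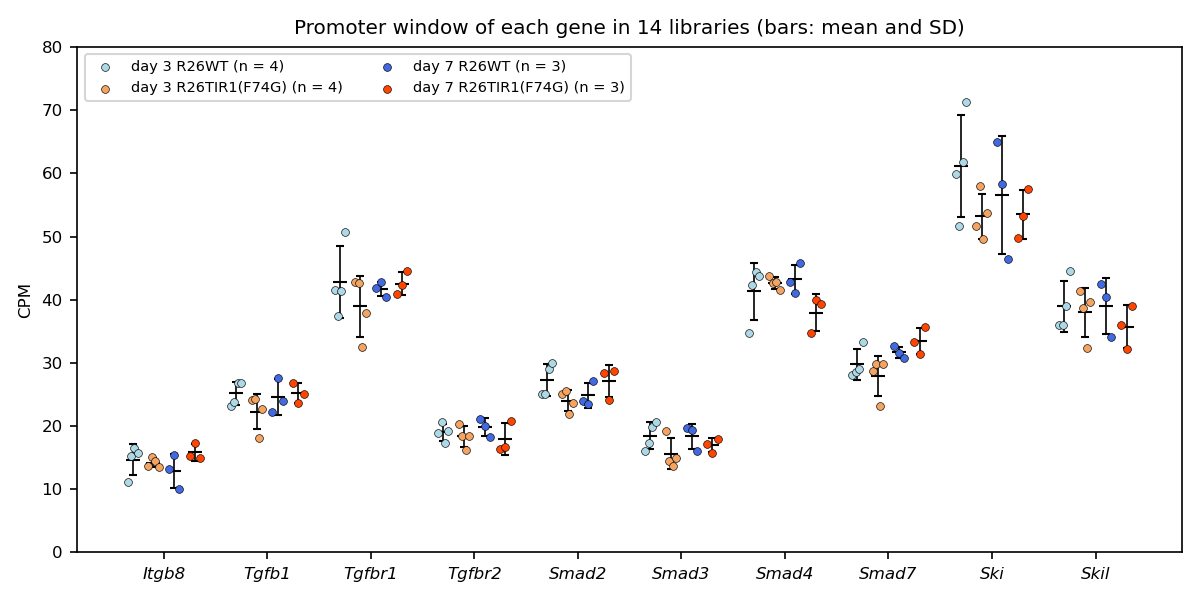
CPM (y axis) of the most accessible window within 1 kb of the start site of each gene (x axis) in 14 libraries, by group. Points are single mice and bars the mean and SD, and apart from Smad4 on day 7 the groups of the 2 genotypes overlap for every gene on both days.

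Among the inhibitors, Smad7 (chr18:75367365-75395935, plus strand) had 20 of its 98 windows in the most accessible 10% of the table. This was the largest number among the genes but not the largest share, with 6 of 13 at Tgfb1 and 11 of 40 at Skil. Of the 11 Smad7 windows at an unadjusted p under 0.05 over both days, 10 were lower in R26TIR1(F74G) mice. That p was reached by 6.73% of all windows, whose direction was not counted. Over both days 69 of the 98 Smad7 windows were lower in R26TIR1(F74G) mice, with a median of -0.05. On day 3 this was 70 of 98, with a median of -0.13, and on day 7 48 of 98, with a median of 0.008. The day 3 median was -0.07 without R26WT replicate 4 or with total counts and -0.05 under the minimum of 50, and the day 7 median lay between -0.04 and 0.05 with single mice left out. The median over both days was -0.03 without R26WT replicate 4 of day 3, -0.02 with total counts and -0.005 under the count minimum of 50. The smallest p over both days was at a window 62651 bp upstream (chr18:75304614-75304815), with day 3 levels of 9.96, 13.2, 13.0 and 14.2 for R26WT and 10.3, 11.1, 8.57 and 9.17 CPM for R26TIR1(F74G) mice. Its day 7 levels were 14.7, 13.3 and 11.5 for R26WT and 9.30, 10.5 and 11.4 CPM for R26TIR1(F74G) mice. The groups overlapped on day 3 and not on day 7, and over both days the log2 fold change was -0.37 ± 0.10 (adjusted p = 0.385). The start-site window (chr18:75367315-75367516) had -0.10 ± 0.12 (adjusted p = 0.899) on day 3 and 0.08 ± 0.12 (adjusted p = 0.961) on day 7, and the highest one, 10244 bp into the gene (chr18:75377509-75377710), had -0.12 ± 0.12 (adjusted p = 0.857) and -0.19 ± 0.12 (adjusted p = 0.884).

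Ski (chr4:155154075-155222535, minus strand), whose product represses SMAD-driven transcription, had a lower level in R26TIR1(F74G) mice in 42 of 52 windows over both days, 38 of 52 on day 7 and 44 of 52 on day 3. The medians were -0.14, -0.13 and -0.18, and 33 windows were lower on both days while 3 were higher on both. The day 7 median was -0.21 without R26TIR1(F74G) replicate 2 and -0.06 without R26WT replicate 3. The day 3 median was -0.12 without R26WT replicate 4 or with total counts and -0.07 under the count minimum of 50. The Treg and T cell marker windows again moved the same way on day 3, and their part was not tested. Of the genes with at least 20 windows, 5.86% had a lower median over both days. The distal window, 21699 bp into the gene (chr4:155200736-155200937), had day 3 levels of 29.1, 28.9, 29.4 and 35.4 for R26WT and 30.9, 23.0, 22.8 and 25.1 CPM for R26TIR1(F74G) mice. On day 7 it had 33.7, 33.2 and 26.5 for R26WT and 23.8, 23.9 and 26.7 CPM for R26TIR1(F74G) mice. On each day 1 R26TIR1(F74G) mouse lay above the lowest R26WT mouse. The log2 fold change was -0.31 ± 0.09 (adjusted p = 0.385) over both days with edgeR, and with DESeq2 this was the other window called (-0.32, adjusted p = 0.0338).

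A second Ski window, 59669 bp into the gene (chr4:155162766-155162967), had the smallest p of all member windows on day 3. Its levels were 8.66, 7.74, 7.99 and 8.20 for R26WT and 5.57, 5.26, 6.56 and 4.83 CPM for R26TIR1(F74G) mice. The groups did not overlap, with a log2 fold change of -0.55 ± 0.16 (adjusted p = 0.443). On day 7 the levels were 7.49, 6.63 and 6.75 for R26WT and 5.88, 6.80 and 6.17 CPM for R26TIR1(F74G) mice, with overlap and a log2 fold change of -0.15 ± 0.16 (adjusted p = 0.939). The value for the difference between days was 0.40 ± 0.23 (adjusted p = 0.818). The start-site window (chr4:155223171-155223372), the most accessible of all member windows, had day 3 levels of 59.9, 51.6, 61.7 and 71.3 for R26WT and 51.6, 58.0, 49.6 and 53.7 CPM for R26TIR1(F74G) mice and day 7 levels of 65.0, 58.3 and 46.5 for R26WT and 49.7, 53.3 and 57.5 CPM for R26TIR1(F74G) mice. Its log2 fold changes were -0.20 ± 0.11 (adjusted p = 0.701) and -0.09 ± 0.12 (adjusted p = 0.953).

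Skil, the paralogue of Ski (chr3:31095058-31122923, plus strand), had 25 of 40 windows lower over both days, with a median of -0.08 (-0.02 without R26WT replicate 3 of day 7), and 0 at an unadjusted p under 0.05. All 7 windows within 1 kb of the start were lower. Day 3 levels of the start-site window (chr3:31094916-31095117) were 36.0, 36.1, 39.1 and 44.6 for R26WT and 41.4, 38.7, 32.3 and 39.6 CPM for R26TIR1(F74G) mice. Day 7 levels were 42.5, 40.4 and 34.0 for R26WT and 36.0, 32.2 and 39.0 CPM for R26TIR1(F74G) mice. The log2 fold changes were -0.04 ± 0.11 (adjusted p = 0.963) and -0.14 ± 0.12 (adjusted p = 0.922), and for the window 1161 bp upstream (chr3:31093797-31093998) they were -0.13 ± 0.13 (adjusted p = 0.866) and -0.07 ± 0.13 (adjusted p = 0.972).

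**Figure D5:**
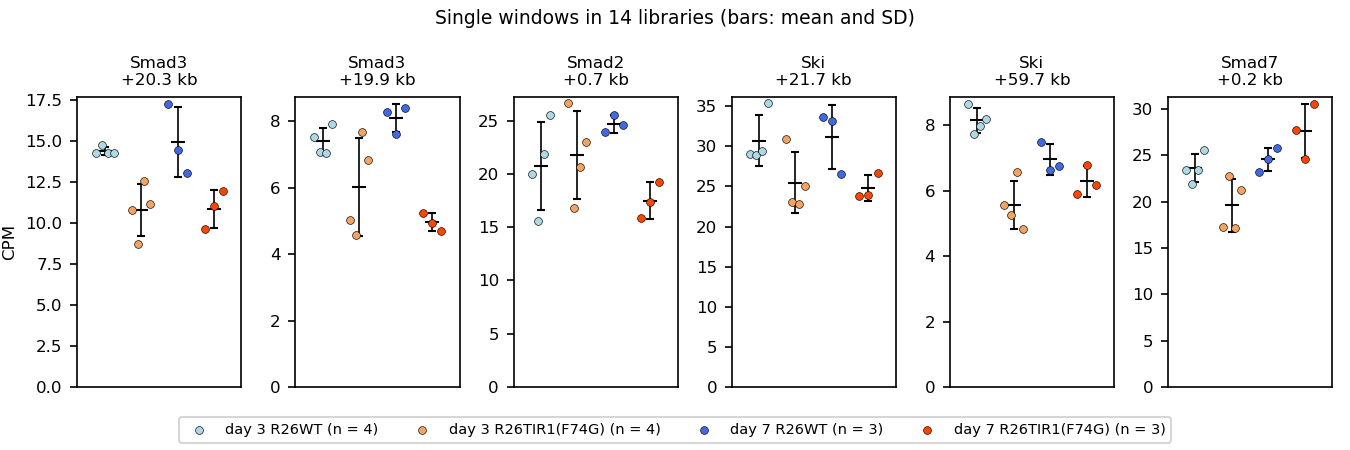
CPM (y axis, from 0) in single mice with the mean and SD of each group, for 6 windows named by gene and distance from the start site. At the Smad3 window at +20.3 kb all R26TIR1(F74G) mice (8.75 to 12.6 CPM) lie below all R26WT mice (13.0 to 17.2 CPM), while at the other 5 windows the genotypes overlap on at least 1 day.

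Whether the genotype difference itself changed between day 3 and day 7 was tested as an interaction. It passed the threshold in 0 of 530 member windows and in 0% of all windows, and an unadjusted p under 0.05 was reached by 22 member windows (4.15%, against 6.32% of all windows). DESeq2 called 0 and 0% of all windows, with 20 at an unadjusted p under 0.05 (3.77%, against 4.74%). The smallest p belonged to a Smad7 window 88093 bp upstream (chr18:75279172-75279373). On day 3 it had 6.58, 6.15, 6.62 and 6.85 for R26WT and 4.14, 6.28, 5.89 and 4.91 CPM for R26TIR1(F74G) mice. On day 7 it had 5.36, 5.06 and 3.90 for R26WT and 6.42, 5.36 and 7.99 CPM for R26TIR1(F74G) mice. The levels overlapped on day 3 and were higher in all R26TIR1(F74G) mice on day 7, the nearest mice differing by less than the rounding, and the difference of the 2 log2 fold changes was 0.69 ± 0.25 (adjusted p = 0.711). The next were the Smad2 window at 697 bp and a low window in Tgfbr2 at 35980 bp (chr9:116139283-116139484), with a value of 1.11 ± 0.41 (adjusted p = 0.720).

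Day 7 was also compared with day 3 within each genotype, using the same libraries. In R26WT mice 0 of 522 member windows passed, where 0.003% of all windows did, with 18 at an unadjusted p under 0.05 (3.45%, against 5.25%). DESeq2 gave 0 and 0% of all windows, with 11 at an unadjusted p under 0.05 (2.11%, against 2.65%). The 3 with the smallest p were a Tgfbr2 window at 36487 bp (chr9:116138776-116138977), with -1.03 ± 0.30 (adjusted p = 0.711), a Smad3 window at 59509 bp (chr9:63698385-63698586), with -0.76 ± 0.25 (adjusted p = 0.848), and a Tgfbr2 window at 37584 bp (chr9:116137679-116137880), with -1.08 ± 0.36 (adjusted p = 0.857). All 3 were low windows, of 1.50 to 2.27 CPM on average. In R26TIR1(F74G) mice 0 of 529 passed, and 0% of all windows, with 22 at an unadjusted p under 0.05 (4.16%, against 6.96%) and 0 called by DESeq2, against 0.000836% of all windows. With that tool 14 had an unadjusted p under 0.05 (2.65%, against 4.18%).

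The smallest p in R26TIR1(F74G) mice was at Smad7, 205 bp into the gene (chr18:75367470-75367671). This window had 23.5, 22.0, 23.4 and 25.6 for R26WT and 17.3, 22.7, 17.1 and 21.3 CPM for R26TIR1(F74G) mice on day 3. By day 7 the levels were 23.3, 24.7 and 25.8 for R26WT and 27.8, 24.6 and 30.5 CPM for R26TIR1(F74G) mice. The 3 R26TIR1(F74G) mice of day 7 lay above the 4 of day 3, with a log2 fold change of 0.48 ± 0.12 (adjusted p = 0.262), while R26WT mice had 0.05 ± 0.13 (adjusted p = 0.996) between the days. The window passed (adjusted p = 0.0420, log2 fold change 0.57) when R26TIR1(F74G) replicate 2 of day 3 was left out, a setting in which the calls over the whole table went from 0 to 364 of 237414 windows (0.153%). An overlapping Smad7 window at 137 bp (chr18:75367402-75367603) had 0.33 ± 0.11 (adjusted p = 0.489), and a Skil window 37651 bp upstream (chr3:31057307-31057508) had 0.42 ± 0.15 (adjusted p = 0.517).

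Of 42 other genes of the pathway, among them further ligands, latent TGF-β binding proteins, activin and BMP receptors, SMADs and ubiquitin ligases, all had windows, 807 in total. None of these windows passed in any of the 6 comparisons, where at most 0.0112% of all windows did. At an unadjusted p under 0.05 there were 44 (5.50%), 58 (7.33%) and 71 windows (8.80%) for day 7, day 3 and both days. The shares of all windows were 5.95%, 7.55% and 6.73%. Of the pathway windows at that p, 29, 36 and 48 were lower in R26TIR1(F74G) mice, and the direction was not counted for all windows. The median log2 fold changes were -0.02, -0.05 and -0.03. The window with the smallest p on day 7 was assigned to Itgb6, the β chain of another integrin that activates TGF-β, with a log2 fold change of -0.53 ± 0.16 (adjusted p = 0.617). On day 3 it was 1 of Lrrc32, which encodes GARP, the surface protein that presents latent TGF-β on Treg cells. This window, 45334 bp from the start site (chr7:98534539-98534740), had 5.19, 5.49, 5.87 and 6.67 CPM for R26WT and 3.60, 3.81, 3.50 and 3.22 CPM for R26TIR1(F74G) mice on day 3, without overlap, a log2 fold change of -0.72 ± 0.18 (adjusted p = 0.370). On day 7 it had 4.07, 3.66 and 4.65 CPM against 4.01, 4.65 and 4.96 CPM, with overlap. Over both days the smallest p was at Rnf111, a ubiquitin ligase that targets Ski and Skil, with a log2 fold change of 0.57 ± 0.16 (adjusted p = 0.387).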

How the data were processed

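ATAC-seq libraries of 14 mice were used. Per the labels and the study's methods, the authors aligned reads to mm10 (GRCm38) with bowtie2, called peaks with MACS2, merged the reproducible ones and used featureCounts at peak summits. The deposited values are raw counts per window. Whether duplicates were removed or the transposase offset applied is not given in the sources used here. Coordinates are printed as the window names have them.

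Labels gave the groups and replicate numbers, and 0 columns were left unmatched. The main test was edgeR 4.0.16 (quasi-likelihood, TMM, R 4.3.3), requiring a mean count of 10 or more in the libraries compared, with Benjamini-Hochberg adjustment over all windows and a threshold of 0.05. CPM and log2(CPM + 0.5) values use TMM factors over all libraries. Tables were summarised in Python 3.11.15. Standard errors were derived from each fold change and its test statistic. Alternatives were DESeq2 1.42.0, other normalizations, filters and a threshold of 0.1, windows within 1 Mb or 10 kb, all libraries in 1 fit, a term for the prefix of mouse names, the replicate number as a block and left-out mice.

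Gene positions (start and end, no exons) are from RefSeq for GRCm38.p6. Strand was found for 21441 of 21900 protein-coding genes. Named for each gene are its most accessible windows within and beyond 1 kb of the start site, and for each comparison any window past the threshold and the 3 member windows with the smallest p. Genes, lists and comparisons were chosen with earlier results of these data known. Each replicate is a separate mouse by name, and counts of 18 replicate pairs differed beyond counting error (chi-square divided by its degrees of freedom 1.63 to 2.46). The protocol names no molecular identifiers, so PCR copies can be counted more than once. The test was tested on simulated counts.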

Additional observations from a re-analysis of the deposited data

Results flagged for a closer look

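In each group of 4 mice on day 3, the highest or lowest mouse was set against the others by Dixon's ratio of the gap to the range, at its 95% critical value. Of 88 groups examined over the named windows and the gene means, 9 had a mouse standing apart in this sense, where chance gives about 1 in 20, or 4.4. Groups of 3 were not examined.

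R26WT replicate 4 stood above the other R26WT mice at the Ski distal window (35.4 CPM, others 28.9 to 29.4) and at the Smad7 start-site window (33.3 CPM, others 28.1 to 29.0). R26TIR1(F74G) replicate 3 stood below the others of its group at that Smad7 window (23.2 CPM, others 28.8 to 29.8) and at the Smad2 window at 1212 bp (6.48 CPM, others 10.8 to 11.5). R26WT replicate 2 had 14.8 CPM at the Smad3 window at 20284 bp (others 14.3 each), where the group's range is narrow, and a mean log2 level of 1.48 over the Itgb8 windows (others 1.37 to 1.38). R26TIR1(F74G) replicate 1, the shallowest library, had 1.80 CPM at the Smad3 window at 59509 bp (others 2.09 each) and a mean log2 level of 1.55 over the Tgfbr2 windows (others 1.40 to 1.42). R26WT replicate 1 had a mean log2 level of 1.28 over the Smad2 windows (others 1.46 to 1.48).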

How the results depend on the processing

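The count of member windows called stayed at 0 in all 6 comparisons, with these exceptions. It was 1 on day 7 with a mean count of at least 50 (Smad2 at 697 bp), 2 over both days with DESeq2 (Smad3 at 20284 bp and Ski at 21699 bp, where that tool adjusted over 30712 windows), and between 0 and 1 for day 7 against day 3 in R26TIR1(F74G) mice when single mice were left out, the 1 coming without replicate 2 of day 3, where 364 of 237414 windows of the whole table were called against 0 with all mice.

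Replicate numbers did not pair the mice, with correlations of deviations between -0.079 and 0.036 on day 3 and between -0.047 and 0.065 on day 7. With the replicate number as a block the count of windows called was 0 in every comparison, with 28, 23 and 39 windows at an unadjusted p under 0.05 for day 7, day 3 and both days (5.28, 4.39 and 7.36%, against 5.98, 6.96 and 6.05% of all windows, of which 52, 4 and 14 windows were called).

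Some fold changes near 0 changed sign, and the cause was not tested (start site here stands for the most accessible window within 1 kb of it). On day 7 these were -0.00015 at the Tgfb1 start site and -0.0051 at that of Tgfbr1 with a mean count of at least 50, and -0.0069 at that of Tgfbr1 with the name prefix as a term. On day 3, total counts gave 0.0089 (Itgb8 start site), 0.0089 (Skil start site) and 0.00076 (Tgfb1 at 2439 bp). Loess offsets gave 0.063, 0.094 and 0.065 at the same windows, 0.031 and 0.014 at Smad7 (start site and 10244 bp) and 0.00098 and 0.048 at Tgfbr2 (60931 bp and start site). A mean count of at least 50 gave 0.042, 0.039 and 0.031 at the first 3 windows and 0.018 at the Tgfbr2 start site. Loess offsets also raised day 3 fold changes that stayed negative. Among these were the Ski start site (-0.044, against -0.20 in the main fit) and Ski at 21699 bp (-0.17, against -0.29). Others were the Smad2 start site (-0.060, against -0.19) and Smad3 at 37028 bp (-0.071, against -0.18).

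With single mice left out, ranges that crossed 0 on day 7 were -0.20 to 0.020 (Ski start site), -0.16 to 0.018 (Skil, 1161 bp upstream), -0.048 to 0.13 and -0.0090 to 0.19 (Tgfb1 start site and 2439 bp), -0.0075 to 0.055 (Tgfbr1 start site) and -0.12 to 0.028 (Tgfbr2, 60931 bp). On day 3 they were -0.16 to 0.010 (Itgb8 start site), -0.082 to 0.030 (Skil start site), -0.098 to 0.21 (Smad2, 1212 bp), -0.028 to 0.22 (Smad4, 1022 bp) and -0.033 to 0.079 (Smad4 start site). The median over the Smad3 windows was between -0.31 and -0.071 on day 7, between -0.28 and -0.13 on day 3 and between -0.23 and -0.17 over both days in all alternatives run, and its extremes of -0.31 and -0.13 came with a mean count of at least 50, where fewer windows were tested. The medians of Tgfb1, Tgfbr2 and Smad2 over both days, of Tgfb1, Tgfbr1, Tgfbr2, Smad2, Smad4 and Smad7 on day 7 and of Itgb8, Tgfb1, Tgfbr1, Tgfbr2 and Skil on day 3 lay on either side of 0 across the alternatives. The mean count was under 50 in 336 of 530 windows, which limits the precision there.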
